A study of Homo sapiens with 15 samples.

Results

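TXNIP (thioredoxin-interacting protein), the alpha-arrestins ARRDC1, ARRDC2, ARRDC3 and ARRDC4, thioredoxin (TXN) and the glucose-sensing transcription factors MLXIP and MLXIPL were followed across a dose series of martinostat in K562 cells. The 8 genes were chosen by symbol from the 60649 genes of the count table, with earlier results of these data known. All 8 were among the 23711 genes that passed the filter on low counts and were tested. K562 cells, an established line, derive from human chronic myeloid leukaemia with a BCR-ABL fusion, and martinostat inhibits histone deacetylases of several classes. The 5 groups were untreated K562 cells and K562 cells given 0.15, 0.25, 0.5 or 1 µM martinostat for 24 h, with 3 libraries of poly(A) RNA per group, 15 in all. No vehicle is named for the untreated cells, and all groups come from 1 cell line without genetic change. The question was how the mRNA of each gene changes with the dose.

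TXNIP and the ARRDC proteins share the arrestin fold and form the alpha-arrestin family. They act as adaptors that bring ubiquitin ligases of the NEDD4 family to membrane proteins, and TXNIP in addition binds reduced thioredoxin and promotes the removal of glucose transporters from the cell surface. MLXIP (MondoA) and MLXIPL (ChREBP) pair with MLX, respond to glucose phosphates and bind pairs of E-box-like elements, of which those in the TXNIP and ARRDC4 promoters are well known. TXNIP is also known as a gene that rises on exposure to histone deacetylase inhibitors.

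The members lie on 7 chromosomes of hg38, and all are protein-coding. TXNIP is at chr1:145992435-145996579 on the minus strand, ARRDC4 at chr15:97960703-97973833 on the plus strand, ARRDC3 at chr5:91368631-91383317 on the minus strand and ARRDC2 at chr19:18001132-18014102 on the plus strand. ARRDC1 (chr9:137605685-137615360, plus strand) and TXN (chr9:110243810-110256507, minus strand) share a chromosome. MLXIP is at chr12:122078756-122147344 on the plus strand and MLXIPL at chr7:73593194-73624543 on the minus strand. A gene on the opposite strand covers 9.5% of the exon bases of ARRDC2, 2.9% of those of ARRDC3 and 0.9% of those of ARRDC1, and a gene on the same strand covers 4.8% of ARRDC1. The values of these genes are uncertain to that extent, since the strand setting of the counting is not stated. The exons of the other members overlap no other gene.

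Promoter sequences were available for all 8 members from RefSeq on GRCh38.p14, and 4 are shown. The stretch printed is 250 bases for ARRDC4 and 200 bases for TXNIP, ARRDC2 and TXN. TXNIP and ARRDC4 hold the E-box-like letters next to CCAAT boxes, and ARRDC2 holds the same letters without a CCAAT box. TXN holds neither in the 200 bases printed, but within 250 bases it holds the E-box-like letters without a CCAAT box, like ARRDC2. MLXIPL, which is not shown, holds neither within 250 bases. Each runs 5′ to 3′ on the strand of the gene and ends at the base before the RefSeq start. Capitals mark CACGNG and CCAAT on either strand (CGCGTG and ATTGG are such matches read on the other strand). The first is chr1:145996580-145996779 (minus strand), the second chr15:97960453-97960702 (plus strand), the third chr19:18000924-18001123 (plus strand) and the fourth chr9:110256508-110256707 (minus strand).
TXNIP: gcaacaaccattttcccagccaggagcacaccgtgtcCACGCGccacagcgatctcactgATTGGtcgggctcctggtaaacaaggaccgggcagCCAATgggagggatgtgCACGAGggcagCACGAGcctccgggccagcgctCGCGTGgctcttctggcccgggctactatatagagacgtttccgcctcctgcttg
ARRDC4: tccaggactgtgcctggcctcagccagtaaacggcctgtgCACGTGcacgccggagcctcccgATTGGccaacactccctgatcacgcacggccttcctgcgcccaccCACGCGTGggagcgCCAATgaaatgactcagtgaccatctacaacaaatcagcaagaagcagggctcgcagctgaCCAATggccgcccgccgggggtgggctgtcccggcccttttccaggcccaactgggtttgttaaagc
ARRDC2: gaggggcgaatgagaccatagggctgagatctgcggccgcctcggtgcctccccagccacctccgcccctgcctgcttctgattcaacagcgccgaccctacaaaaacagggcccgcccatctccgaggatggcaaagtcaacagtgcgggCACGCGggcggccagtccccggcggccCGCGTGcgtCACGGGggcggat
TXN: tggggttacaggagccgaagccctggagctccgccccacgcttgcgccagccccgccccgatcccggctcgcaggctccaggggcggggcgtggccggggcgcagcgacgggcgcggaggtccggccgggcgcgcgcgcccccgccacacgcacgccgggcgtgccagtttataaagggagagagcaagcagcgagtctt

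The TXNIP promoter held a pair of CACGNG elements in the same direction with 5 bases between them, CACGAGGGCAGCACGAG, from 88 to 72 bases before the start. This pair, a CACGNG followed by another with 5 free bases between, searched on both strands, was found in 16 of 35116 promoters (0.0456%) in the 250 bases before the start, and TXNIP was the one member among them. The motif was searched because the element of TXNIP was known, so its presence there is no finding. Single CACGNG matches were present in 26.7% of promoters and in those of 4 members, TXNIP, ARRDC4, ARRDC2 and TXN, the last 247 to 242 bases before the start and outside the stretch printed. ARRDC4 held the palindrome CACGTG (6.34% of promoters), which is a case of CACGNG on both strands, 210 to 205 bases before its start. CCAAT occurred in 32.0% of promoters, at 3 places in ARRDC4, at 2 in TXNIP and at 1 each in ARRDC1, ARRDC3 and MLXIP. These matches are descriptions of letters within 250 bases, and no binding was measured.

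Library totals ranged from 23755510 to 32805574 counts, and levels are given as CPM, counts relative to the size of their library, after scaling with TMM (the trimmed mean of M values). On the third principal component, which held 4.47% of the variance, replicate 3 of the 0.25 µM group was at 70.1 and replicate 3 of the 0.5 µM group at 75.4, apart from the other 13 libraries. The 10 markers fixed for K562 cells, erythroid transcription factors, globins and receptors, all had counts in untreated cells, 9 of them at 10 CPM or above, and their summed level went from 3621 to 3951 CPM in untreated libraries to 861.6 to 997.8 CPM at 1 µM, where 8 were called lower and 1 higher. The 8 lymphoid and monocyte markers summed to 13.02 to 18.2 CPM in untreated libraries, with MS4A1 at 0. Their sum was 50.1 to 54.92 CPM at 0.15 µM and 35.64 to 42.66 CPM at 1 µM, where 1 of them was at 10 CPM or above. Of the 7 tested, 3 were called higher and 2 lower at 1 µM. The part of these shifts in the results on the 8 genes was not tested, and in bulk samples a change in the kinds of cells cannot be told apart from a change within cells.

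Relative to untreated cells, TXNIP, ARRDC4 and MLXIPL were called higher and TXN and ARRDC2 lower at the lowest dose. The log2 fold changes of TXNIP (0.45) and ARRDC4 (0.54) there compare with a median of 0.28 over all tested genes. TXNIP, TXN and ARRDC2 each lost this call under 6 of 26 alternative settings and ARRDC4 under 1, while MLXIPL kept it under all 26. From 0.25 µM upwards ARRDC3 was also higher and MLXIP lower, and between 0.5 and 1 µM no member was called. At 1 µM the log2 fold changes ran from -3.18 for ARRDC2 to 4.71 for MLXIPL. The arrestin genes did not all move in one direction: 3 of 5 rose, ARRDC2 fell and ARRDC1 was not called.

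A gene was called at an adjusted p under 0.05 in edgeR (quasi-likelihood test, Benjamini-Hochberg adjustment over all tested genes), and every adjusted p below comes from this test. At 0.15 µM, 5 of the 8 members were called against untreated cells, 3 higher and 2 lower, where 51.2% of all tested genes were called. Of all genes, 31.9% were called higher and 19.4% lower there. At 0.25 µM all 8 were called, 4 in each direction (ARRDC1 lost its call under 15 of 26 alternative settings), against 62.3% of all genes (37.4% higher and 24.8% lower). At 0.5 and 1 µM, 7 were called, 4 higher and 3 lower, against 66.9% (39.4% higher and 27.6% lower) and 66.2% (38.8% higher and 27.5% lower). The ranges of treated and untreated libraries did not overlap for 6 members at 0.15 µM (63.2% of all genes), for 8 at 0.25 µM (67.5%), for 8 at 0.5 µM (69.9%) and for 7 at 1 µM (74.9%). Most genes of this cell line moved under the drug, so the number of members called is near the background at 0.15 µM. At the higher doses, too, counts over only 8 members say little beyond the background, and the sizes and directions carry the description. The 4 comparisons with untreated cells share the same 3 control libraries and are not independent of each other.

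**Figure D1:**
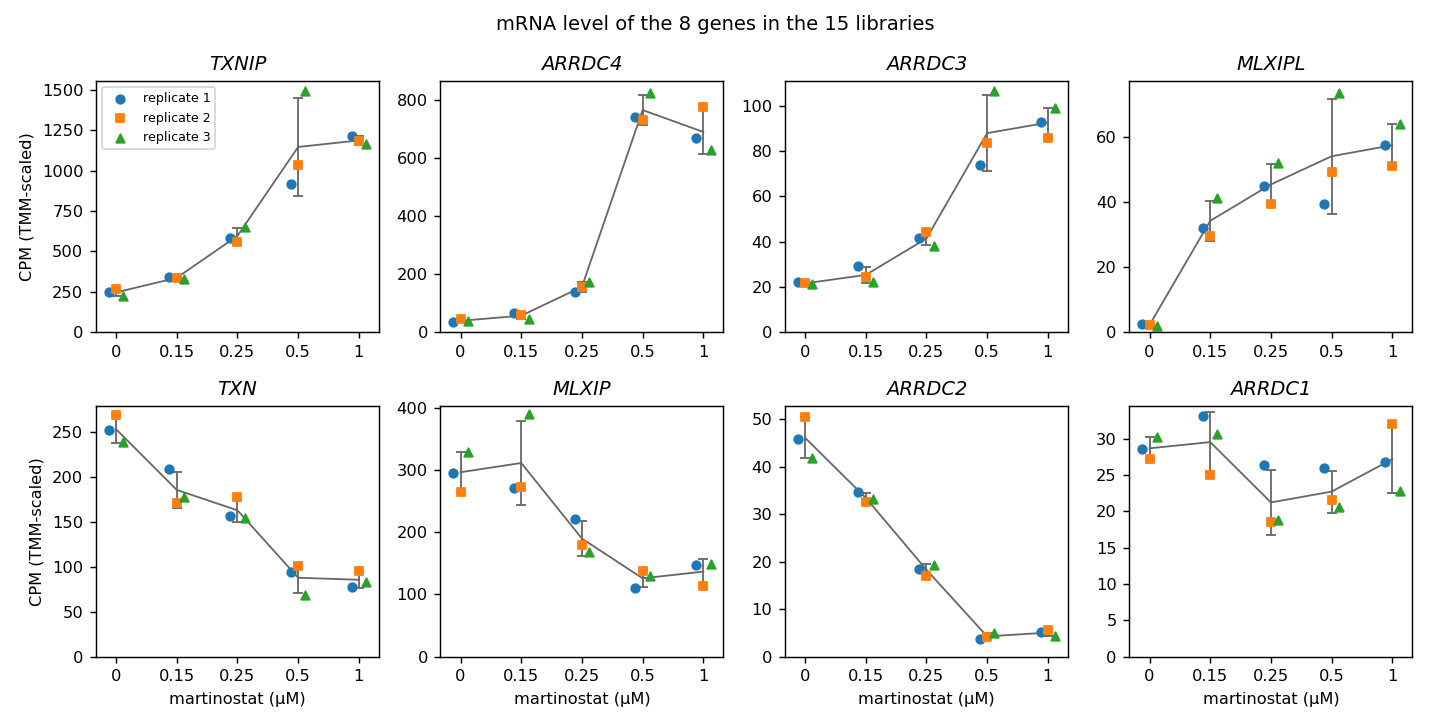
Level of each member in the 15 libraries, with the martinostat dose (µM, evenly spaced categories) on the x axis and TMM-scaled CPM on the y axis, each panel from 0. Points are libraries by replicate number, the line joins group means and bars are the SD (n = 3). TXNIP, ARRDC4, ARRDC3 and MLXIPL climb with the dose, TXN, MLXIP and ARRDC2 descend, and ARRDC1 stays between 18.5 and 33.0 CPM throughout.

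TXNIP was at 248, 269 and 221 CPM in the untreated libraries, at 344, 336 and 329 CPM at 0.15 µM and at 581, 556 and 651 CPM at 0.25 µM. It reached 915, 1034 and 1492 CPM at 0.5 µM and 1215, 1184 and 1162 CPM at 1 µM. The libraries of each dose lay above all those of the dose before it, up to 0.5 µM, and the high value at 0.5 µM came from the third replicate, which stands apart in the principal components. Against untreated cells, TXNIP rose on the log2 scale by 0.45 at 0.15 µM (SE 0.17, adjusted p = 0.0317), by 1.28 at 0.25 µM (SE 0.17, adjusted p = 3.08e-06), by 2.22 at 0.5 µM (SE 0.18, adjusted p = 2.04e-09) and by 2.27 at 1 µM (SE 0.18, adjusted p = 1.55e-09), to a 4.82-fold level. Of all tested genes, 54.6% had a lower log2 fold change than TXNIP at 0.15 µM and 76.8% at 1 µM, so many genes rose more. The change at 0.15 µM lost its call when untreated replicate 1 or 3 or any one of the 0.15 µM libraries was left out (log2 fold changes from 0.38 to 0.46, adjusted p from 0.0531 to 0.13), while its direction did not change. Between doses, TXNIP rose by 0.83 from 0.15 to 0.25 µM (adjusted p = 0.00376) and by 0.94 from 0.25 to 0.5 µM (adjusted p = 0.000287), and the step to 1 µM was 0.05 (SE 0.17, adjusted p = 1.0).

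ARRDC4, an alpha-arrestin close to TXNIP in sequence that also acts on glucose uptake, was at 36.5, 43.7 and 37.0 CPM in untreated cells and at 66.7, 58.3 and 45.4 CPM at 0.15 µM. The values were 140.1, 154 and 175 CPM at 0.25 µM, 740.3, 731 and 826 CPM at 0.5 µM and 670.0, 775 and 626 CPM at 1 µM. The groups did not overlap up to 0.5 µM, and the 2 highest doses overlapped. It rose by 0.54 on the log2 scale at 0.15 µM (SE 0.16, adjusted p = 0.00878), by 2.00 at 0.25 µM (adjusted p = 6.84e-09), by 4.29 at 0.5 µM (SE 0.18, adjusted p = 5.26e-13) and by 4.14 at 1 µM (SE 0.18, adjusted p = 7.87e-13), which is 17.7-fold. Without replicate 1 at 0.15 µM the change at that dose was 0.41 and was no longer called (adjusted p = 0.063). The step from 0.25 to 0.5 µM was the largest of any member (2.29, SE 0.17, adjusted p = 1.11e-08), and 98.6% of all tested genes had a lower log2 fold change in that comparison. Against untreated cells at 1 µM this share was 87.2%.

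ARRDC3, an adaptor that directs membrane proteins such as integrin beta-4 to degradation, was at 21.9, 21.5 and 21.1 CPM in untreated cells. It was at 29.3, 24.2 and 22.3 CPM at 0.15 µM and at 41.5, 44.3 and 38.2 CPM at 0.25 µM. It then stood at 73.7, 83.3 and 107 CPM at 0.5 µM and at 92.8, 85.8 and 99.0 CPM at 1 µM. The 0.15 µM libraries all lay above the untreated ones, but the difference of 0.23 (SE 0.15, adjusted p = 0.204) was not called. ARRDC3 rose by 0.94 at 0.25 µM (SE 0.15, adjusted p = 2.3e-05), by 2.03 at 0.5 µM (adjusted p = 1.04e-09) and by 2.10 at 1 µM (SE 0.15, adjusted p = 6.54e-10), values close to those of TXNIP at 0.5 and 1 µM. At 1 µM, 75.4% of tested genes had a lower log2 fold change.

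ARRDC2, a less studied member of the family, went the other way. The untreated libraries held 45.9, 50.5 and 41.9 CPM, followed by 34.6, 32.6 and 33.2 CPM at 0.15 µM and 18.5, 17.0 and 19.4 CPM at 0.25 µM. At 0.5 µM it was at 3.67, 4.27 and 4.95 CPM and at 1 µM at 5.29, 5.70 and 4.29 CPM. Each group lay below the one before it up to 0.5 µM. The log2 fold change was -0.46 at 0.15 µM (SE 0.15, adjusted p = 0.0136), -1.33 at 0.25 µM (adjusted p = 3.96e-07), -3.42 at 0.5 µM (SE 0.17, adjusted p = 3.12e-12) and -3.18 at 1 µM (SE 0.16, adjusted p = 6.29e-12), and at 1 µM 1.5% of tested genes had a lower value. The call at 0.15 µM was lost without untreated replicate 2 (-0.39, adjusted p = 0.0718).

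ARRDC1, which is known for budding of vesicles from the plasma membrane, was at 28.6, 27.2 and 30.2 CPM in untreated cells and at 33.0, 24.9 and 30.6 CPM at 0.15 µM. It was at 26.3, 18.5 and 18.8 CPM at 0.25 µM, at 26.0, 21.5 and 20.6 CPM at 0.5 µM and at 26.8, 31.9 and 22.8 CPM at 1 µM. The untreated libraries lay above those of 0.25 and 0.5 µM, and at 1 µM the groups overlapped. It was called lower at 0.25 µM with a log2 fold change of -0.43 (SE 0.17, adjusted p = 0.0359), a call that ended when untreated replicate 1, 2 or 3, replicate 3 at 0.15 µM or replicate 2 or 3 at 0.25 µM was left out (from -0.33 to -0.47), with DESeq2 (adjusted p = 0.057) and with RLE scaling (adjusted p = 0.0564), and whose sign turned when library totals were used (0.09). At 1 µM the difference was -0.08 (SE 0.17, adjusted p = 0.71). In the test over all 5 groups, ARRDC1 was the 1 member not called (adjusted p = 0.0622), the other 7 being at 1.42e-06 or below, where 73.6% of tested genes were called.

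TXN, the cytosolic protein disulfide reductase that TXNIP binds, was at 251, 269 and 238 CPM in untreated cells and at 208, 170.2 and 177 CPM at 0.15 µM. It was at 157, 177 and 154 CPM at 0.25 µM, at 93.7, 100.4 and 69.0 CPM at 0.5 µM and at 77.7, 95.3 and 83.4 CPM at 1 µM. Every treated library lay below the untreated ones, and those of 0.5 and 1 µM lay below all others. TXN fell by 0.45 on the log2 scale at 0.15 µM (SE 0.15, adjusted p = 0.0186), by 0.64 at 0.25 µM (SE 0.15, adjusted p = 0.00127), by 1.53 at 0.5 µM (adjusted p = 5.98e-08) and by 1.56 at 1 µM (SE 0.15, adjusted p = 4.35e-08). The call at 0.15 µM ended without untreated replicate 2 (-0.40, adjusted p = 0.0755) or without replicate 2 at 0.15 µM (-0.39, adjusted p = 0.0795). Among the dose steps, the one from 0.25 to 0.5 µM was called (-0.89, adjusted p = 0.00018).

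MLXIP was at 295, 265 and 329 CPM in untreated cells and at 271, 273 and 389 CPM at 0.15 µM. The levels were 222, 180.2 and 168 CPM at 0.25 µM, 110.5, 137 and 129.9 CPM at 0.5 µM and 147, 114 and 149 CPM at 1 µM. The 0.15 µM group overlapped with untreated cells (0.07, SE 0.17, adjusted p = 0.758), and the groups of the 3 higher doses lay below both. MLXIP fell by 0.64 at 0.25 µM (SE 0.17, adjusted p = 0.00332), by 1.23 at 0.5 µM (adjusted p = 4.75e-06) and by 1.12 at 1 µM (SE 0.17, adjusted p = 1.53e-05). Its calls in the dose steps rested on single libraries: that from 0.15 to 0.25 µM (-0.71, adjusted p = 0.0112) ended without replicate 3 at 0.15 µM (-0.48), and that from 0.25 to 0.5 µM (-0.59, adjusted p = 0.0135) ended without replicate 1 at either dose (-0.47 and -0.51).

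MLXIPL, a paralog of MLXIP best known from liver and fat, was low in untreated cells, at 2.41, 2.16 and 2.00 CPM from raw counts of 59, 56 and 51. At 0.15 µM it was at 31.9, 29.7 and 41.1 CPM, and the higher doses gave 44.9, 39.3 and 52.1 CPM at 0.25 µM, 39.4, 49.3 and 73.6 CPM at 0.5 µM and 57.4, 51.0 and 64.0 CPM at 1 µM. The rise at the lowest dose, 15.6-fold or 3.96 on the log2 scale (SE 0.23, adjusted p = 1.21e-10), compares with 26.2-fold or 4.71 at 1 µM (SE 0.24, adjusted p = 5.1e-12). The steps from 0.15 to 0.25 µM (0.41, adjusted p = 0.191) and from 0.25 to 0.5 µM (0.25, adjusted p = 0.357) were not called, while 1 µM exceeded 0.15 µM (0.75, SE 0.20, adjusted p = 0.00422).

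**Figure D2:**
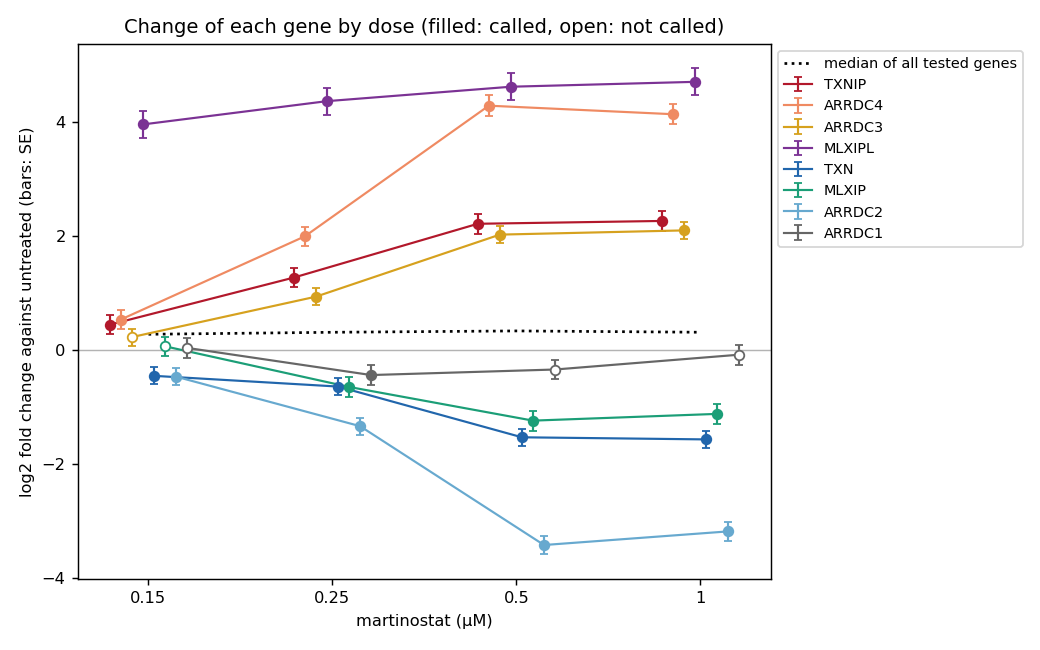
Log2 fold change of each member against untreated cells (y axis) by dose in µM (x axis, evenly spaced categories), with bars for the SE from the fit. Filled points were called and open points were not, and the dotted line is the median of all tested genes. MLXIPL is at 3.96 already at 0.15 µM and at 4.71 at 1 µM, whereas ARRDC4, TXNIP, ARRDC3, TXN, MLXIP and ARRDC2 move mainly between 0.15 and 0.5 µM.

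Successive doses were compared next, to ask where along the series each gene moved. From 0.15 to 0.25 µM, 5 of the 8 members were called, 3 higher (TXNIP, ARRDC3 and ARRDC4) and 2 lower (ARRDC2 and MLXIP), where 12.3% of all tested genes were called (4.96% higher and 7.32% lower); the ranges of 5 members did not overlap (30.6% of all genes). From 0.25 to 0.5 µM, 6 were called, the same 3 genes higher and ARRDC2, TXN and MLXIP lower, against 30.4% of all genes (14.4% higher and 16.0% lower), and the ranges of the same 6 did not overlap (38.6% of all genes). Between 0.15 and 1 µM, 4 members were higher and 3 lower, against 44.5% of all genes (21.5% higher and 23.1% lower), and the ranges of 7 did not overlap (58.7%). Because the members were chosen with earlier results of these data known, these counts cannot show an excess over all genes. From 0.5 to 1 µM no member was called, and neither was any other gene (0.0%); 372 genes had an unadjusted p under 0.05 there and limma on FPKM called 1 gene. The ranges of all 8 members overlapped in this step, where those of 5.63% of genes did not. The differences of the members in this last step lay between -0.15 for ARRDC4 and 0.26 for ARRDC1 with SEs up to 0.19, so changes of that size were not resolved.

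The calls of the smaller changes, and the sign of those of ARRDC1, depended on how the libraries were scaled. With TMM, the tested genes had a median log2 fold change of 0.28, 0.32, 0.34 and 0.32 in order of rising dose, and with library totals alone it was 0.64, 0.85, 0.72 and 0.67. At 0.15 µM, TMM put 62.2% of the called genes on the higher side, and library totals 81.9%. TXN at 0.15 µM was at -0.45 with TMM and -0.09 with library totals, and ARRDC2 at -0.46 and -0.10, neither called with totals. MLXIP at 0.15 µM was at 0.07 with TMM and was called higher with library totals (0.42, adjusted p = 0.0451). ARRDC3 was called higher at 0.15 µM with library totals (0.59, adjusted p = 0.0149). At 0.25 µM, TXN (-0.11) and MLXIP (-0.12) were also not called with totals. ARRDC1 was at -0.43, -0.34 and -0.08 from 0.25 to 1 µM with TMM and at 0.09, 0.03 and 0.28 with library totals. At 0.5 and 1 µM the members called with TMM had the same direction and stayed called under all 4 scalings. Relative to the median of all genes at 1 µM, the differences were 1.95 for TXNIP, 3.83 for ARRDC4, 1.79 for ARRDC3, 4.39 for MLXIPL, -1.88 for TXN, -1.43 for MLXIP and -3.50 for ARRDC2.

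**Figure D3:**
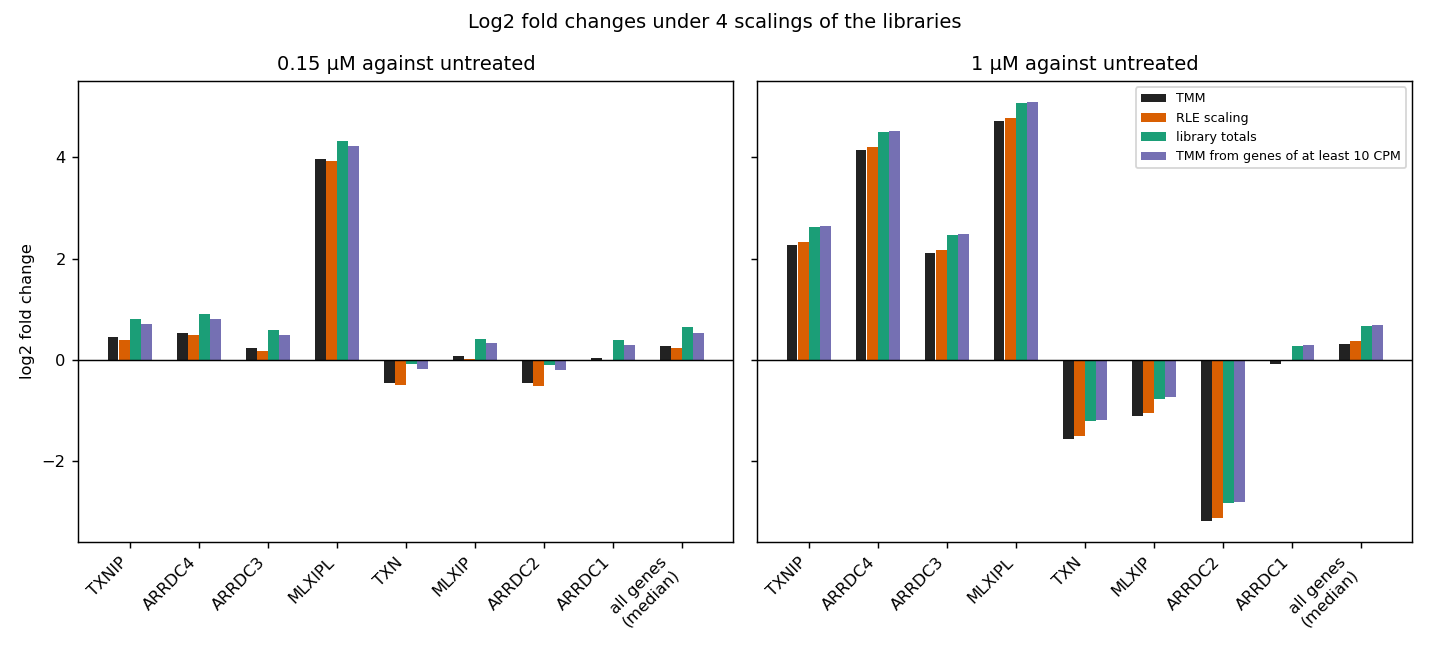
Log2 fold changes of the members and the median of all tested genes at 0.15 µM (left) and 1 µM (right) against untreated cells, as bars from 0, under 4 scalings of the library sizes. TXN and ARRDC2 at 0.15 µM shrink from -0.45 and -0.46 with TMM to -0.09 and -0.10 with library totals, while the bars of the 7 moving genes at 1 µM keep their side of 0.

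A ratio of a pair of genes within a library does not depend on the scaling. The ratio of TXNIP to TXN counts was 0.989, 0.999 and 0.931 in untreated libraries and 1.65, 1.97 and 1.86 at 0.15 µM. It was 3.71, 3.14 and 4.24 at 0.25 µM, 9.77, 10.3 and 21.6 at 0.5 µM and 15.6, 12.4 and 13.9 at 1 µM. Each treated group lay above the untreated libraries, by 0.91, 1.91, 3.74 and 3.84 on the log2 scale from the lowest to the highest dose, or 1.87-, 3.77-, 13.3- and 14.3-fold. The exact permutation test (two-sided, n = 3 against 3) gave p = 0.1 at each dose, the smallest value that this design allows. Per exon length, the ratio was 0.273 ± 0.0104 (SD, n = 3) in untreated cells, 1.04 ± 0.154 at 0.25 µM and 3.92 ± 0.449 at 1 µM. By this measure the transcript of the inhibitor went from below that of thioredoxin to above it, with the crossing near 0.25 µM. Exon length joins the exons of all annotated transcripts of a gene, which can differ from the mRNA expressed, and the dose of the crossing depends on it. By counts alone the ratio was already 0.931 to 0.999 in untreated cells.

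Another 2 ratios, chosen after their values were seen and given without a test, compare paralogs. MLXIPL to MLXIP per exon length was 0.0215 ± 0.00351 (SD, n = 3) in untreated cells, 0.319 ± 0.0180 at 0.15 µM and 0.702 ± 0.168 at 0.25 µM. It reached 1.23 ± 0.348 and 1.22 ± 0.0836 at the highest doses. By this measure, which depends on the exon lengths used, the mRNA of the 2 paralogs was of similar level at 0.5 and 1 µM. ARRDC4 to ARRDC2 per exon length was 0.967 ± 0.0533 in untreated cells, 1.93 ± 0.335 at 0.15 µM and 9.74 ± 0.966 at 0.25 µM. It then stood at 206 ± 21.7 for 0.5 µM and 156 ± 11.1 for 1 µM.

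**Figure D4:**
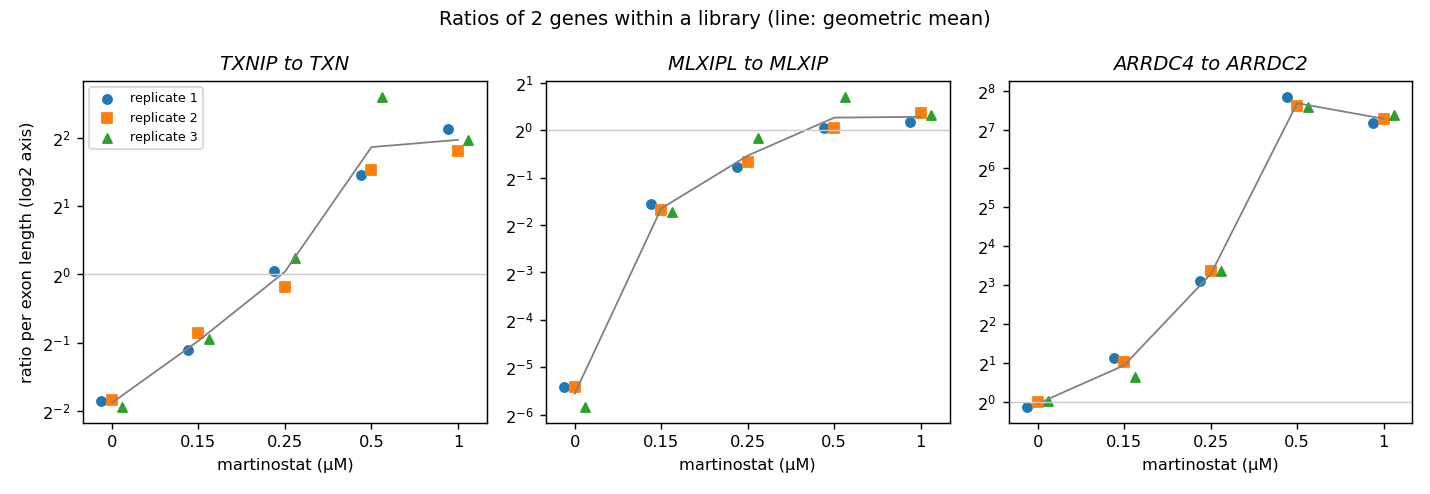
Ratios per exon length of TXNIP to TXN, MLXIPL to MLXIP and ARRDC4 to ARRDC2 (y axis, log2 scale) by martinostat dose in µM (x axis, evenly spaced categories). Points are libraries, the line joins geometric means of 3 libraries and the horizontal line marks equal levels. TXNIP passes TXN near 0.25 µM, and the third replicate at 0.5 µM, with a ratio of 6.05, lies above the other libraries of that dose at 2.74 and 2.89.

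Levels of different genes were compared as CPM per kilobase of exon. In untreated cells TXN was the highest member at 250.1 ± 15.3 (SD, n = 3), followed by TXNIP at 68.3 ± 6.57 and MLXIP at 21.4 ± 2.32. ARRDC2 at 9.95 and ARRDC4 at 9.62 did not differ beyond their spread, ARRDC1 was at 7.56 and ARRDC3 at 4.31, and MLXIPL was the lowest at 0.455 ± 0.0436. At 0.15 µM the order began with TXN at 183 ± 20.0, TXNIP at 93.3 ± 2.16, MLXIP at 22.4 ± 4.88 and ARRDC4 at 14.0 ± 2.65, and ARRDC1, ARRDC2 and MLXIPL overlapped between 7.11 and 7.79, above ARRDC3 at 5.07. At 0.25 µM TXNIP at 165 ± 13.7 and TXN at 161 ± 12.6 overlapped. At 0.5 µM TXNIP was at 318 ± 84.4, ARRDC4 at 189 ± 12.9 and TXN at 86.9 ± 16.4. At 1 µM the order was TXNIP at 329 ± 7.28, ARRDC4 at 170.0 ± 18.8, TXN at 84.6 ± 8.89, ARRDC3 at 18.6 ± 1.32, MLXIPL at 11.9 ± 1.35, MLXIP at 9.86 ± 1.41, ARRDC1 at 7.17 and ARRDC2 at 1.10 ± 0.156, where MLXIP overlapped with both its neighbours.

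Among the 23670 genes ranked by this level, TXNIP moved from rank 839 in untreated cells to rank 81 at 1 µM, and ARRDC4 from rank 5283 to rank 185. MLXIPL moved from rank 14240 to rank 3694. In the opposite direction, TXN went from rank 150 to rank 398 and ARRDC2 from rank 5177 to rank 13218.

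Genes whose log2 CPM were most like TXNIP across the 15 libraries, among 10127 genes averaging 10 CPM or more over those libraries, were SAT1 (r = 0.997), which encodes a polyamine acetyltransferase, LINC02432 (r = 0.995), PLEKHM3 (r = 0.989) and TIGD6 (r = 0.988). SAT1 went from 16.0 ± 3.30 CPM (SD, n = 3) in untreated cells to 290.1 ± 29.4 CPM at 1 µM. ARRDC3 (r = 0.984) was at rank 8 and ARRDC4 (r = 0.983) at rank 11 of that order. TXN (r = -0.964, rank 9807), ARRDC2 (r = -0.956, rank 9661) and MLXIP (r = -0.92, rank 9002) stood in its lower part. MLXIPL was at r = 0.778 and ARRDC1 at r = -0.424. These correlations describe points that share dose, library and depth, and many genes that follow the dose give high values.

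The other genes of the pathway are described by lists at 1 µM against untreated cells, where all tested genes had a median log2 fold change of 0.32 and 38.8% were called higher and 27.5% lower. Of 8 tested genes that share the arrestin fold, 4 were higher and 3 lower, with a median of 0.54. With library totals 5 were higher and 2 lower. VPS26B, a retromer subunit, fell by 1.13 (SE 0.12, adjusted p = 1.03e-07), and ARRB1, a beta-arrestin and the most abundant gene of the list, fell by 0.59 (SE 0.17, adjusted p = 0.00624), with 23.6% of its exon bases under another gene of the same strand. SAG, the visual arrestin, had the highest fold change of the list and rested on 4 counts in the untreated group against 54 at 1 µM (12.0-fold, 95% counting interval 4.40 to 45.4). Its untreated level was 0.0522 ± 0.0904 CPM (SD, n = 3), so these 4 counts came from 1 library, a spread that the interval does not cover. ARRDC5 was under the filter on low counts. Of 11 NEDD4-family ligases and adaptors, 3 were higher, 3 lower and 5 not called, with a median of 0.01. WWP1, a known partner of several ARRDC proteins, fell by 1.19 (SE 0.16, adjusted p = 1.8e-06), HECW1 rose by 3.69 from 13 to 193 counts, and NEDD4L, the most abundant of the list, was at 0.19 (adjusted p = 0.229). Under library totals 7 of the 11 were higher and 1 lower, so the balance of this list rested on the scaling.

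MLX itself, the shared partner, went from 70.1 ± 4.60 CPM (SD, n = 3) to 52.2 ± 3.52 CPM (-0.42, SE 0.13, adjusted p = 0.00755). Of the 4 genes for MLX and its other partners, 2 were higher and 2 lower at 1 µM, with a median of 0.38, and with library totals 2 were higher and 1 lower. MXD4, a repressor of the MAX network, rose by 2.16 (SE 0.21, adjusted p = 2.91e-08), and MNT fell by 0.94 (SE 0.14, adjusted p = 6.48e-06). Among 8 known target genes of MLXIP and MLXIPL other than the members, 1 was higher and 5 lower, with a median of -1.87, and the counts were the same under all 4 scalings. FASN, fatty acid synthase, went from 2574 ± 410 CPM to 402 ± 93.4 CPM (-2.68, SE 0.28, adjusted p = 1.64e-07). PKLR, the red cell and liver pyruvate kinase, fell by 3.05 (SE 0.42, adjusted p = 2.13e-05), with 17.6% of its exon bases under a gene of the opposite strand, and KLF10 rose by 0.97 (SE 0.14, adjusted p = 4.02e-06). The list holds lipogenic and glycolytic genes. At 0.15 µM 7 of the 8 were already lower, where 19.4% of all tested genes were called lower. With library totals 5 of the 8 were lower there, and 6 with TMM from genes of at least 10 CPM. G6PC1 was under the filter.

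Of 18 tested genes of the thioredoxin and glutaredoxin system, 3 were higher, 8 lower and 7 not called at 1 µM, with a median of -0.54. PRDX4, the peroxiredoxin of the endoplasmic reticulum, went from 324 ± 5.48 to 53.3 ± 5.20 CPM (-2.60, SE 0.27, adjusted p = 1.52e-07). PRDX1, a cytosolic peroxiredoxin that thioredoxin reduces, rose by 0.88 (SE 0.14, adjusted p = 1.61e-05), with 29.8% of its exon bases under a gene of the opposite strand, and NXN, nucleoredoxin, rose by 1.76 (SE 0.29, adjusted p = 5.7e-05). The reductases differed: TXNRD1, the cytosolic one, was at 388 ± 30.8 and 366 ± 11.3 CPM (-0.09, SE 0.17, adjusted p = 0.671), while TXNRD2, the mitochondrial one, went from 156 ± 6.53 to 33.8 ± 2.31 CPM (-2.21, SE 0.16, adjusted p = 5.92e-10); both were picked after their values were seen. When TMM factors came from genes at 10 CPM or above, the list had 6 higher and 8 lower genes. Of 8 thioredoxin clients, 2 were higher and 2 lower with a median of -0.19, which turned positive (0.17) under library totals. MSRB3, a methionine sulfoxide reductase, had 0 counts in the untreated group and 362 at 1 µM, at least 106.7-fold higher against a floor of 3 counts over the group, and MSRA fell by 1.68 (SE 0.26, adjusted p = 1.65e-05). The large subunit gene of ribonucleotide reductase, RRM1, fell by 1.63 (SE 0.20, adjusted p = 9.96e-07); it, MLX and NFYB were named after their values were seen. RRM2, the small subunit gene and the most abundant of the list, was at 340.1 ± 23.9 CPM (SD, n = 3) in untreated cells and 109.0 ± 15.4 CPM at 0.15 µM, lay between 47.6 and 88.9 CPM in the libraries of 0.25 µM, and had means of 267 ± 99.1 and 282 ± 46.4 CPM at the highest doses. It fell at 0.25 µM (-2.34, SE 0.26, adjusted p = 6.84e-07) and was not called at 1 µM (-0.27, SE 0.25, adjusted p = 0.358).

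All 6 tested genes for glucose uptake and phosphorylation were called at 1 µM, 3 higher and 3 lower. HK2, a hexokinase, went from 216 ± 12.7 to 23.6 ± 2.88 CPM (-3.19, SE 0.15, adjusted p = 1.9e-12), and HK1 from 1332 ± 153 to 362 ± 53.2 CPM (-1.88, SE 0.22, adjusted p = 4.98e-07). The transporter genes split, as SLC2A1 (GLUT1), a known cargo of TXNIP, went from 322 ± 24.2 to 80.4 ± 4.50 CPM (fell by 2.00, SE 0.15, adjusted p = 1.2e-09) and SLC2A3 (GLUT3) from 121 ± 14.3 to 581 ± 47.5 CPM (2.26, SE 0.15, adjusted p = 1.72e-10); these 2 were picked after their values were seen. SLC2A2 and HK3 were under the filter.

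Of 7 tested cargo proteins and partners of alpha-arrestins, 5 were higher and 2 lower, at 1 µM under all 4 scalings, with a median of 1.28 with TMM and up to 1.67 with the others. DDIT4 (REDD1), which binds TXNIP, went from 67.6 ± 11.1 to 164.7 ± 14.1 CPM (1.28, SE 0.16, adjusted p = 7.59e-07). PYCARD, the adaptor of inflammasomes, fell by 2.67 (SE 0.31, adjusted p = 4.29e-07), with 59.7% of its exon bases under an antisense gene. NLRP3, the inflammasome sensor that TXNIP is known to bind, had 0 counts in the untreated group and 31 at 1 µM, at least 9.15-fold higher, with 66.0% of its exon bases under another gene of the same strand, while CASP1 and IL1B were under the filter. Of the 3 subunits of NF-Y, the factor that binds CCAAT, NFYC fell by 1.19 (SE 0.12, adjusted p = 7.56e-08) and NFYB by 0.99 (SE 0.15, adjusted p = 8.73e-06), and NFYA was at 0.23 (SE 0.13, adjusted p = 0.131), with a median of -0.99; with library totals 1 was higher and 2 lower.

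**Figure D5:**
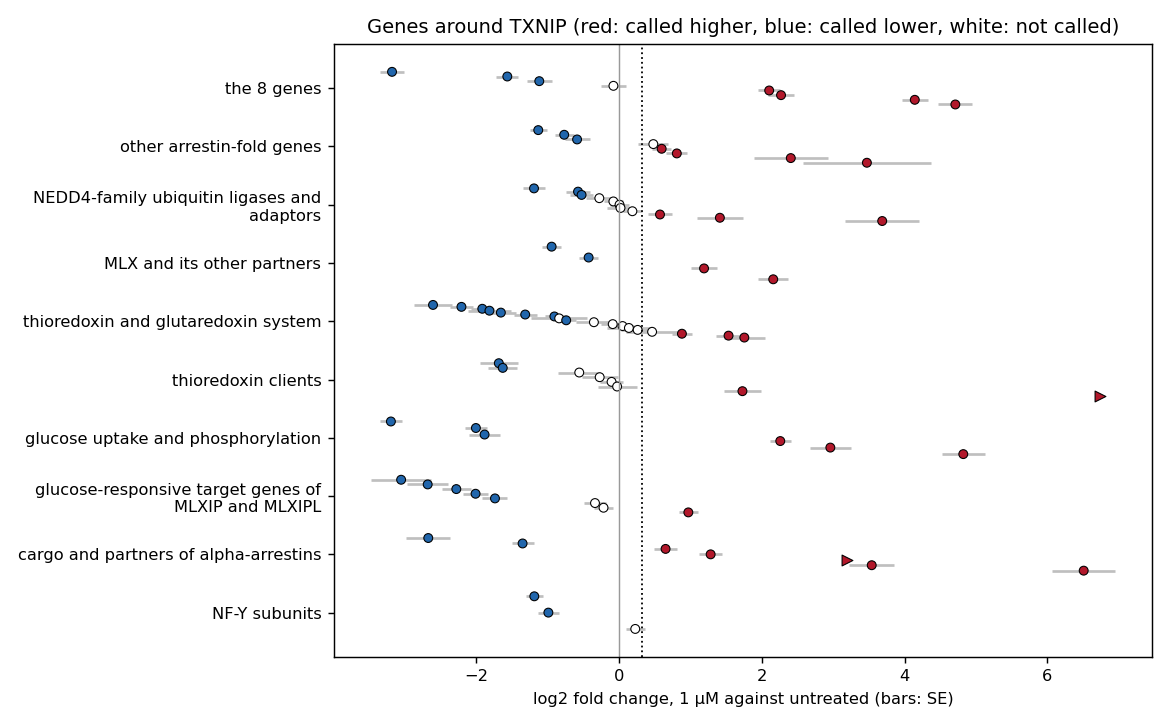
Log2 fold change at 1 µM against untreated cells (x axis) of each tested gene in the 8 members and 9 lists (y axis), with bars for the SE. Red points were called higher, blue points lower and white points were not called, the dotted line is the median of all tested genes (0.32), and triangles are lower bounds for MSRB3 and NLRP3, which had no counts in untreated cells. The target genes of MLXIP and MLXIPL lie mostly left of 0, and the genes for glucose uptake and phosphorylation split into 3 on either side.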

How the data were processed

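Martinostat-treated and untreated K562 cells were sequenced by the authors as poly(A) RNA with a directional kit. As the study's methods state, reads were trimmed with Trim Galore 0.6.10, aligned to hg38 with HISAT2 2.2.1 and counted per gene of GENCODE release 38 with featureCounts 1.5.3. The strand setting is not given in the sources used here. The deposited table holds raw counts of 60649 genes in 15 libraries, and the deposited FPKM, 1 table per library, divide by the genomic span of a gene with introns, so FPKM were not compared between genes and served in 1 alternative, as log2(FPKM + 1) with limma 3.58.1.

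Groups and replicate numbers came from the labels, which number biological replicates; p-values measure the spread between these libraries. Counts were fitted with edgeR 4.0.16 in R 4.3.3: filterByExpr left 23711 genes, TMM factors scaled the libraries, and 1 robust quasi-likelihood fit over all 15 libraries, with group as the only term, gave each comparison. Benjamini-Hochberg adjustment ran over all tested genes, and SE is the log2 fold change divided by the root of F. DESeq2 1.42.0, other scalings and filters, and leaving out each library were alternatives. The exact permutation test used scipy 1.17.1. Counting intervals are 95% and cover counting error only. Symbols were found for 99.7% of identifiers, and positions and exon lengths came from GENCODE release 44 on hg38; the identifier of MLXIP differs between releases in its version. Same-numbered libraries of 0.25 and 0.5 µM deviated together from their group means (r = 0.266, 0.268 and 0.579 for the 3 numbers). The highest value joins the third replicates, which stand apart in the principal components. Replicate 2 at 0.25 µM and replicate 1 at 0.5 µM deviated together nearly as much as the lower values (r = 0.236). These values do not settle whether the 2 groups are paired by number, and the labels state no pairing. No other same-numbered pair was over 0.1, while 6 of 60 pairs with other numbers were. The fit with the number as a block was an alternative. Replicates differed by more than sampling noise in every group (chi-square over its degrees of freedom 5.85 or higher). The spread was uneven. Pairs with replicate 3 were at 78.1 and 60.7 at 0.25 µM and at 110 and 83.4 at 0.5 µM, and all other pairs were at 38.4 or below.

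The members and gene lists were chosen with earlier results of these data known. From each list were named the genes with the highest and lowest log2 fold change at 1 µM and the highest mean CPM, and the 5 genes most correlated with TXNIP; others are marked as picked later. Some genes that this rule names are not reported here.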

Additional observations from a re-analysis of the deposited data

How the results depend on the processing

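Each result was recomputed under 26 alternatives, 1 of them (without replicate 3 of both 0.25 and 0.5 µM) chosen after seeing the data. Of 1664 values of members under an alternative, 1585 kept their direction and their side of the threshold, 45 lost a call and 5 gained one without a change of sign, and 29 turned sign. One called result was among the latter, ARRDC1 at 0.25 µM, with library totals (0.087) and with limma on FPKM (0.052). The others were not called in either setting. Against untreated cells they were ARRDC1 at 0.15 µM with RLE and with DESeq2 (both -0.0050) and without replicate 1 of that dose (-0.045), ARRDC1 at 0.5 µM with library totals (0.034), with TMM from genes of at least 10 CPM (0.071) and with limma (0.021), ARRDC1 at 1 µM in the same order (0.28, 0.30 and 0.19), with at least 10 counts in every library (0.20) and without replicate 3 (0.032), and MLXIP at 0.15 µM without untreated replicate 2 (-0.0025) and without replicate 3 at 0.15 µM (-0.13). From 0.25 to 0.5 µM, ARRDC1 turned with library totals (-0.053), with limma (-0.032) and without replicate 1 at 0.5 µM (-0.011), and MLXIPL without replicate 3 at 0.5 µM (-0.035). From 0.15 to 1 µM, ARRDC1 turned with TMM from genes of at least 10 CPM (0.0022). From 0.5 to 1 µM, TXNIP turned with library totals (-0.015), with TMM from genes of at least 10 CPM (-0.0013) and without replicate 1 (-0.086) or 2 (-0.015) at 0.5 µM, TXN without replicate 1 (0.015) or 2 (0.076) at 0.5 µM or replicate 1 at 1 µM (0.030), and ARRDC3 (-0.035) and MLXIPL (-0.094) without replicate 1 at 0.5 µM. The other ends of these ranges over left-out libraries were 0.16 for MLXIP at 0.15 µM, -0.21 for ARRDC1 at 1 µM, 0.44 for MLXIPL from 0.25 to 0.5 µM and, from 0.5 to 1 µM, 0.29 for TXNIP, 0.24 for ARRDC3 and -0.18 for TXN. ARRDC1 at 0.25 µM lost its call under 15 of the alternatives, among them DESeq2 (adjusted p = 0.057), RLE (0.0564), no filter (0.0517) and the libraries compared alone (0.0763). TXNIP at 0.15 µM lost its call with RLE scaling (0.40, adjusted p = 0.0523), and without single libraries its log2 fold change ran from 0.38 to 0.52. At 0.15 µM the number of members called higher was 5 with library totals and 1 to 3 without single libraries. The number called lower there was 0 with library totals, with TMM from genes of at least 10 CPM, with at least 10 counts in every library and with limma, 1 with no filter and 0 to 2 without single libraries. At 0.25 µM it was 1 with library totals, with TMM from genes of at least 10 CPM and with limma, and 2 with at least 10 counts in every library. That filter tests fewer genes and called 7517, 8851, 9784 and 9690 genes at the 4 doses. From 0.15 to 0.25 µM, 1866 genes were called from the libraries compared alone and 1704 to 4022 without single libraries (1704 without replicate 3, 1802 without replicate 1 and 1870 without replicate 2 at 0.15 µM, and 1940 without replicate 2 at 0.25 µM), and the members called lower were 1 from the libraries compared alone, 1 with limma and 1 to 3 without single libraries. From 0.5 to 1 µM limma called 1 gene. On the log2(FPKM + 1) scale of limma, MLXIPL was at 1.00, 1.33, 1.39 and 1.44 and ARRDC2 at -1.46 at 1 µM, smaller than with counts because the pseudocount of 1 is above their lowest mean FPKM. Other causes of these changes were not tested.

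With the replicate block 12136, 14750, 15816 and 15808 genes were called at the 4 doses, 7161 from 0.25 to 0.5 µM (7211 without it), and none of the 64 member results changed its call. The counts of low members such as MLXIPL in untreated cells (51 to 59 raw counts) limit the precision of their fold changes.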
